A study of Rattus norvegicus with 8 samples.

Results

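The epidermal growth factor (EGF) ligands heparin-binding EGF-like growth factor (Hbegf), epiregulin (Ereg), amphiregulin (Areg) and transforming growth factor alpha (Tgfa) were measured in rat skin with and without a wound. They are 4 of the 19752 Ensembl gene IDs printed on the array, taken as every non-control spot that carries the ID ENSRNOG00000018646 (Hbegf), ENSRNOG00000002771 (Ereg), ENSRNOG00000002754 (Areg) or ENSRNOG00000016182 (Tgfa). The pairing of these IDs with symbols came with the gene list, since neither the files nor the reference gene table pair them. The wounded group was Long-Evans rat pups that had received a 3-mm incision of the dorsal skin 3 days after birth, with skin taken at the incision 36 h later (n = 4). The control group was Long-Evans pups with no wound, with skin taken at the matching place (n = 4). No sample received chemotherapy, although the study's title concerns hair loss under chemotherapy, and the age at sampling is given only for the wounded group. Whether samples were separate pups or pools is not stated in the labels, so p-values here reflect only the spread among these 8 samples, part of which may be technical.

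The EGF ligands are made as membrane proteins whose outer part is cut free by metalloproteinases and then binds receptors of the ErbB family on the same or a neighbouring cell. In skin the main such receptor is the EGF receptor of keratinocytes, and its activation drives their migration and proliferation when a wound is closed. Hbegf and Ereg bind the EGF receptor and ErbB4, whereas Areg and Tgfa bind the EGF receptor. In the RefSeq annotation of the GRCr8 assembly, Areg and Ereg are adjacent genes on chromosome 14, flanked by the genes of the related ligands betacellulin (Btc) and epithelial mitogen (Epgn), while Hbegf lies on chromosome 18 and Tgfa on chromosome 4.

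Under the main setting, the Hbegf signal was higher in wounded than in control skin, as was that of Ereg against control spots mostly not found. A difference in Areg or Tgfa was not detected. Hbegf was 1.63-fold higher on a scale that understates the changes of dim spots, and 2.39-fold higher once the local background had been subtracted. Both values come from its brighter probe. Its dimmer probe, found too rarely to be tested, did not separate the groups. Ereg was 1.28-fold higher on the first scale, but its spot was found on 4 of 4 wounded arrays and only 1 of 4 control arrays, so the size of its change is poorly measured. Areg gave a fold change of 1.07 that did not pass the test. Tgfa was not found on most arrays of either group, so it could not be tested. Hbegf and Ereg were called higher and neither they nor Areg lower, where 8.01% of all 12769 features were called higher and 9.65% lower. A feature is the brightest probe of an Ensembl ID, or a probe without such an ID, and it was called where the limma p, adjusted over all features, was under 0.05. The Hbegf call was lost in 3 of the omissions of 1 sample, and the Ereg call in 1. For both called genes the 4 wounded values lay wholly above the 4 control values, as they did for 8.78% of all features. Ereg met the minimum of 4 arrays with its spot found only through the wounded group, where it is high. Its call is thus no independent support for a rise, and nothing is read from how many of the ligands were called.

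The promoters of Hbegf, which passed the test, and of Areg, which did not, are shown so that the sequences of a ligand gene with a called change and one without can be read side by side. Both windows run 5′ to 3′ on the gene's strand from 250 bases before to 50 bases after the annotated start (RefSeq, GRCr8). They are chr18:28390171-28390470 on the minus strand and chr14:17265592-17265891 on the minus strand. Capitals mark matches on either strand to any of 4 motifs, the AP-1 site TGANTCA, the cyclic AMP response element TGACGTCA, the TATA box TATAAA and the GC box GGGCGG, which do not overlap one another here.
Hbegf: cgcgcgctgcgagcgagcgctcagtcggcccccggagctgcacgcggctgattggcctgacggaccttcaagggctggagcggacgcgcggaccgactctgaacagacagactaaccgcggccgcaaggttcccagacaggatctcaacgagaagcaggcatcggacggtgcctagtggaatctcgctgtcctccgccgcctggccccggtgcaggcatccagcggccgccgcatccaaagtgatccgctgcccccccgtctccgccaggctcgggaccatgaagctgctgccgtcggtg
Areg: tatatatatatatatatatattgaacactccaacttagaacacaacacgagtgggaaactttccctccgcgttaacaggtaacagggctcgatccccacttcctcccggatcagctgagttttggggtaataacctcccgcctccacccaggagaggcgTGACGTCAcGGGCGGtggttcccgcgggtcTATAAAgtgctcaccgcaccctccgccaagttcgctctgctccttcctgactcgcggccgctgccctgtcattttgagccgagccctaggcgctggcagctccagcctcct
The Areg window holds the cyclic AMP response element from base -91, a GC box from base -82 and a TATA box from base -61 relative to the annotated start. Among 33469 RefSeq promoters of this length, 1.83% hold the cyclic AMP response element, 33.1% the GC box, 14.2% the TATA box and 7.33% the AP-1 site. The Hbegf window holds none of these 4 strings of letters, which says nothing of what binds there. Whether transcription in this skin begins at the annotated starts was not tested, so a window may miss promoter sequence. The Tgfa window holds 2 GC boxes and none of the other motifs. No promoter sequence was available for Ereg, the other called gene.

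Each of the 4 genes was printed as 2 different probes with 1 spot each, numbered here by brightness. Of these 8 probes, 4 were found by the scanner software on at least 4 of the 8 arrays, the minimum set for a test, and they belong to Hbegf, Ereg and Areg. Over the whole array, 43.5% to 51.4% of the probes were found per array, and the median local background was 41 to 44 intensity units. On the second principal component of the normalised log2 signal, with 13.5% of the variance, wounded 4 and control 1 lay apart from the other 6 arrays. Their array numbers in the labels are also the 2 outside a common run, and each called result is given below without them. Control arrays were scanned before wounded ones, so scan order and group cannot be told apart. Markers of keratinocytes, immune cells and other skin cell types could not be looked up without gene symbols, so the tissue label was not checked and the part of cell makeup was not tested. In such bulk skin, fewer cells of a type and less RNA per cell cannot be told apart.

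Hbegf, whose shed form promotes keratinocyte migration and whose human membrane form is also the receptor for diphtheria toxin, was found on all 8 arrays by its brighter probe. As deposited by the scanner, foreground minus local background was 99, 114, 215 and 64 intensity units in wounded samples 1 to 4, against 64, 40, 26 and 59 in control samples 1 to 4. Wounded 3 was by far the brightest, and wounded 4 equalled control 1 on this unnormalised scale. After background correction and quantile normalisation, the log2 signal was 7.16, 7.27, 8.16 and 6.98 in wounded samples 1 to 4, against 6.76, 6.85, 6.39 and 6.74 in control samples 1 to 4. The groups did not overlap on this scale, with wounded 4 the lowest of its group and control 2 the highest of the controls.

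**Figure D1:**
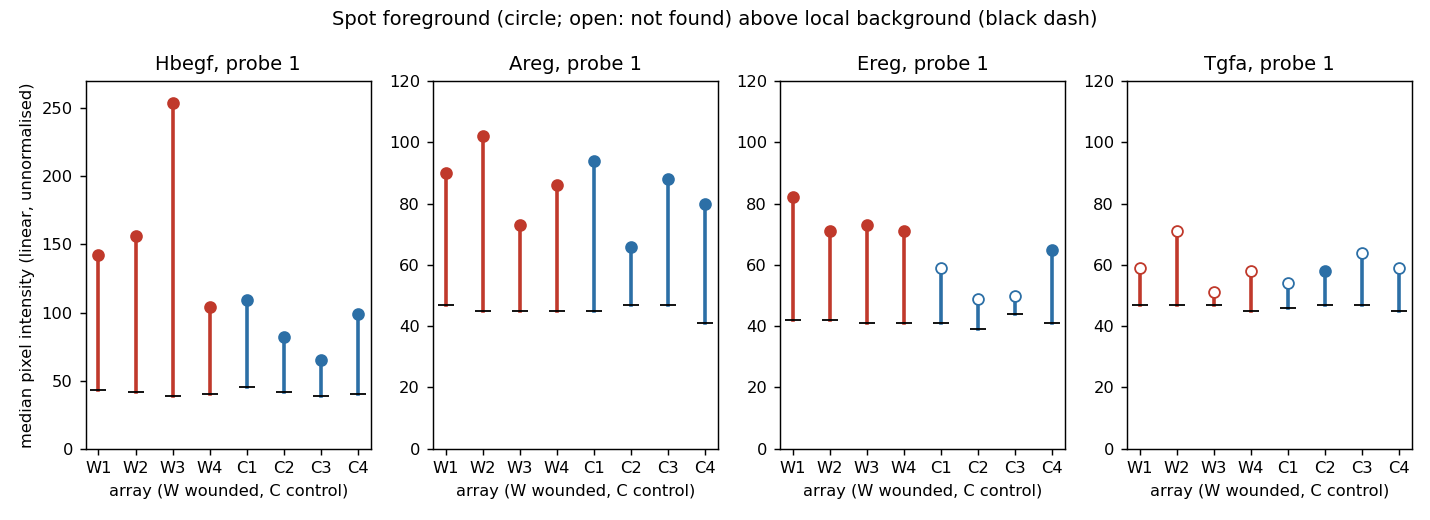
Unnormalised median pixel intensity of the brighter probe of each gene on each array, wounded (red) left of control (blue), with circles for the foreground, open where the software did not find the spot, and black dashes for the local background; the Hbegf panel has a taller axis than the others. Hbegf reached 254 units in wounded 3, while the Tgfa spots stood 4 to 24 units above their background.

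Hbegf averaged a log2 signal of 7.39 ± 0.53 in wounded skin and 6.68 ± 0.20 in control skin (SD, n = 4 each). Its log2 fold change was 0.71 ± 0.21 (SE), with a 95% interval of 0.26 to 1.15 and a limma adjusted p of 0.0257 over all features, and 4 of 4 wounded samples were above every control. Among all features, 5.72% had a larger log2 fold change, and the median of the 1023 features called higher was 0.88, against -0.05 for all features. The residual SD of Hbegf, 0.398 on the log2 scale, exceeded that of 88.9% of features, with wounded 3 standing 0.77 above its group mean and control 3 standing 0.30 below its own. The limma call was lost without wounded 3 (log2 fold change 0.45, adjusted p = 0.0597), without control 3 (0.61, adjusted p = 0.0979) and without control 4 (0.72, adjusted p = 0.0528), and also when the variance was not allowed to depend on signal (adjusted p = 0.0658). Within the 6 arrays of the common run it was 0.86 ± 0.24 (SE), with a limma adjusted p of 0.0306.

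The size of the Hbegf change depended on how the background was treated, and this spot lay 26 to 215 units above its background. With an offset of 10 in place of 50 the log2 fold change was 1.01 ± 0.29, with the background subtracted 1.26 ± 0.36, and with the authors' deposited values 1.29 ± 0.38 (SE, n = 4 per group). All of these passed the limma test, at adjusted p-values of 0.0225, 0.0262 and 0.0266. The dimmer Hbegf probe was found on 3 of 4 wounded arrays, missing wounded 3, and on 0 of 4 control arrays. Its log2 signal was 6.07, 6.15, 6.30 and 6.39 in wounded samples 1 to 4, against 6.07, 6.10, 6.14 and 6.18 in control samples 1 to 4. The groups overlapped, and 2 of 4 wounded samples stood above every control. Wounded 4 was the highest wounded sample by this probe and the lowest by the brighter one. The probes thus disagreed on the order of the wounded samples. The difference of the dimmer probe's mean normalised log2 signals, 0.10, counts spots that were not found, in all controls and in wounded 3. It also leaves out the spread between samples, so it is neither a measured size nor a lower limit. This probe was found too rarely to be tested.

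Ereg, a mitogen for keratinocytes, was found on 4 of 4 wounded arrays and on 1 of 4 control arrays, control 4, by its brighter probe. Foreground minus background was 40, 29, 32 and 30 units in wounded samples 1 to 4, against 18, 10, 6 and 24 in control samples 1 to 4. The lowest wounded value, 29, thus stood above the highest control value, 24, before any normalisation. The log2 signal was 6.51, 6.34, 6.58 and 6.50 in wounded samples 1 to 4, against 6.18, 6.10, 5.95 and 6.26 in control samples 1 to 4. All wounded samples were above all controls, and the nearest pair was wounded 2 and control 4.

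The Ereg values below are set against control spots of which 3 of 4 were not found, so the fitted change is a difference from signals near background and its interval covers the spread between samples only. Ereg averaged 6.48 ± 0.10 in wounded skin and 6.12 ± 0.13 in control skin (log2 signal, SD, n = 4 each). The log2 fold change was 0.36 ± 0.09 (SE), with a 95% interval of 0.17 to 0.56 and a limma adjusted p of 0.00999 over all features, and 4 of 4 wounded samples were above every control. Its residual SD, 0.116, exceeded that of only 9.08% of features. An offset of 10 gave a fitted log2 fold change of 0.75, and local background subtraction 1.44 (limma adjusted p = 0.0107 and 0.0223), but both rest on control spots 6 to 24 units above background and are no measured size. The limma call was lost without control 3, the dimmest control (log2 fold change 0.31, adjusted p = 0.0575), and without a variance trend (adjusted p = 0.0637). Within the 6 arrays of the common run it was 0.37 ± 0.11 (SE), with a limma adjusted p of 0.0354.

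The dimmer Ereg probe was found on wounded 1 and on no other array. Its log2 signal was 6.16, 6.25, 6.32 and 6.11 in wounded samples 1 to 4, against 6.08, 6.16, 6.01 and 6.07 in control samples 1 to 4. The groups overlapped, with 2 of 4 wounded samples above every control, and no fold change is given because the spots were mostly not found in either group. The authors' deposited values were not used for Ereg or Tgfa, since the rows used here name neither.

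**Figure D2:**
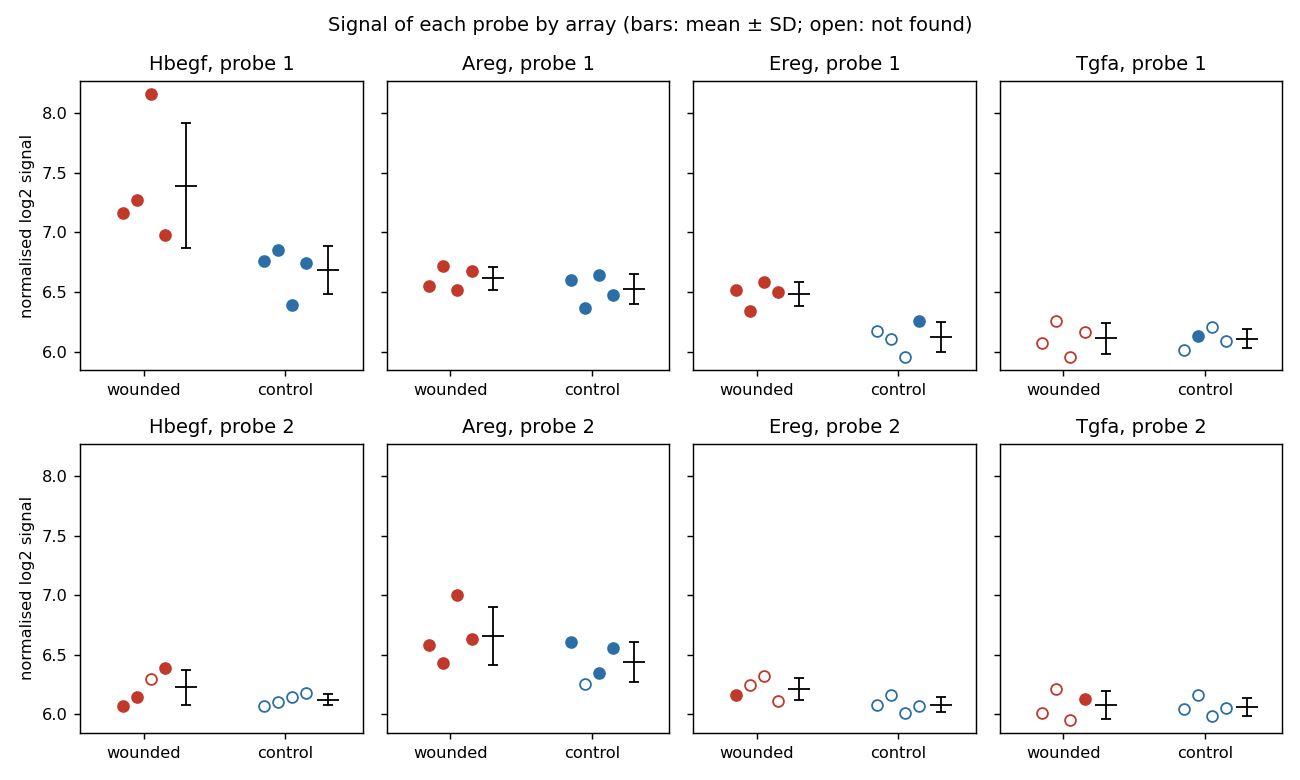
Normalised log2 signal of both probes of each gene in wounded (red, left) and control (blue, right) samples, each circle an array, open where the spot was not found, with black bars for the mean ± SD of 4 samples. Only the brighter probes of Hbegf and Ereg have wounded samples wholly above the controls, and both Tgfa probes stay between 5.95 and 6.26.

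Areg, an autocrine growth factor of cultured keratinocytes, was found on all 8 arrays by its brighter probe and showed no difference beyond the spread between samples. Foreground minus background was 43, 57, 28 and 41 units in wounded samples 1 to 4, against 49, 19, 41 and 39 in control samples 1 to 4. The log2 signal was 6.55, 6.72, 6.51 and 6.67 in wounded samples 1 to 4, against 6.60, 6.37, 6.65 and 6.48 in control samples 1 to 4. The groups overlapped, since control 3 and control 1 were above wounded 1 and wounded 3. The means were 6.61 ± 0.10 in wounded skin and 6.52 ± 0.13 in control skin (SD, n = 4 each). The log2 fold change was 0.09 ± 0.11 (SE, limma adjusted p = 0.619), with a 95% interval of -0.14 to 0.32, a fold of 0.908 to 1.25.

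The other Areg probe was found on 4 of 4 wounded arrays and 3 of 4 control arrays. Its log2 signal was 6.58, 6.43, 7.00 and 6.63 in wounded samples 1 to 4, against 6.60, 6.25, 6.35 and 6.55 in control samples 1 to 4. Wounded 3 was the brightest sample by this probe and the dimmest wounded sample by the first, so the probes disagreed on the order of the samples. Its log2 fold change was 0.22 ± 0.13 (SE), with a limma adjusted p of 0.290 when every found probe was tested on its own. In that fit the brighter probes of Hbegf and Ereg were called higher (limma adjusted p = 0.0292 and 0.0115), as were 8.09% of all 19444 probes. The Ereg probe again met the minimum of arrays only through the wounded group, where it is high. Both calls rest on the same values as the main fit, so they add no support. With the authors' deposited values the Areg probes gave log2 fold changes of 0.19 ± 0.29 by the brighter probe and 0.51 ± 0.34 by the other (SE), and neither passed the limma test (adjusted p = 0.703 and 0.330).

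Tgfa, the EGF receptor ligand whose loss in mice gives waved hair and whiskers, was at the edge of detection. Its first probe was found on 0 of 4 wounded arrays and on 1 of 4 control arrays, control 2, and its second on 1 of 4 wounded arrays, wounded 4, and 0 of 4 control arrays. Foreground minus background of the first probe was 12, 24, 4 and 13 units in wounded samples 1 to 4, against 8, 11, 17 and 14 in control samples 1 to 4. Its log2 signal was 6.07, 6.26, 5.95 and 6.16 in wounded samples 1 to 4, against 6.01, 6.13, 6.21 and 6.09 in control samples 1 to 4. The second probe gave 6.01, 6.21, 5.95 and 6.13 in wounded samples 1 to 4, against 6.05, 6.16, 5.98 and 6.05 in control samples 1 to 4. Both probes overlapped fully between the groups, and no fold change is given because the spots were not found. A change in Tgfa was thus not detectable at this signal, which is not to say that it is absent.

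**Figure D3:**
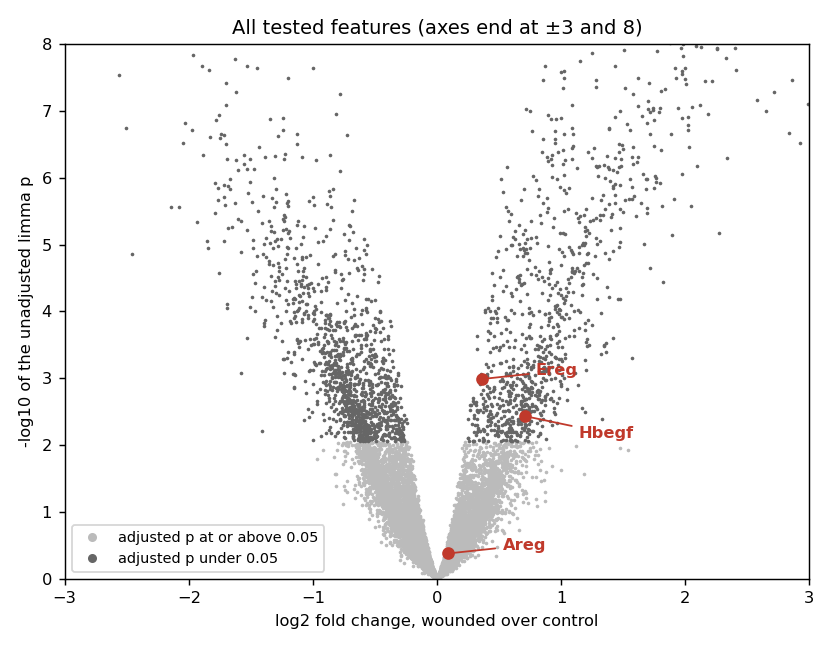
Log2 fold change, wounded over control, against -log10 of the unadjusted limma p for all tested features (grey, darker where the adjusted p was under 0.05), with Hbegf, Ereg and Areg in red; 138 features lie outside the axes and Tgfa was not tested. Hbegf and Ereg sit among the smaller of the called rises and Areg near the origin.

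Set side by side, the brighter probes gave log2 fold changes of 0.71 ± 0.21 for Hbegf, 0.36 ± 0.09 for Ereg and 0.09 ± 0.11 for Areg (SE). Whether the changes of these genes differ from each other was not tested, since the spots differ in brightness and the offset shortens the changes of dim spots most. Of the 1023 called rises, 689 had a larger log2 fold change than Hbegf. Wounded 3, the highest wounded sample for Hbegf by its brighter probe, was also the highest wounded sample for Ereg by both probes and the lowest for both Tgfa probes. Control 3 was the lowest control for the brighter probes of Hbegf and Ereg, at 0.30 and 0.17 below the control mean, and the highest control for the brighter Areg probe, at 0.12 above it.

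The features whose log2 signal followed that of Hbegf most closely over the 8 arrays were ENSRNOG00000015337 (Pearson r of 0.972) and ENSRNOG00000014777 (r of 0.970), which the files do not pair with symbols. The 8 points come from 2 groups and share their arrays, and r is given as a description. The part in r of wounded 3, the brightest sample for Hbegf, was not tested. Both features were picked for the highest r among all tested features, so high values follow from the choice. Their log2 fold changes were 0.43 ± 0.22 and 0.69 ± 0.25 (SE), and neither passed the limma test (adjusted p = 0.210 and 0.0653). The other lists of the pathway, the ErbB receptors, the enzymes that shed the ligands, the feedback inhibitors and the response genes, could not be matched to the array's IDs and are not analysed here.

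**Figure D4:**
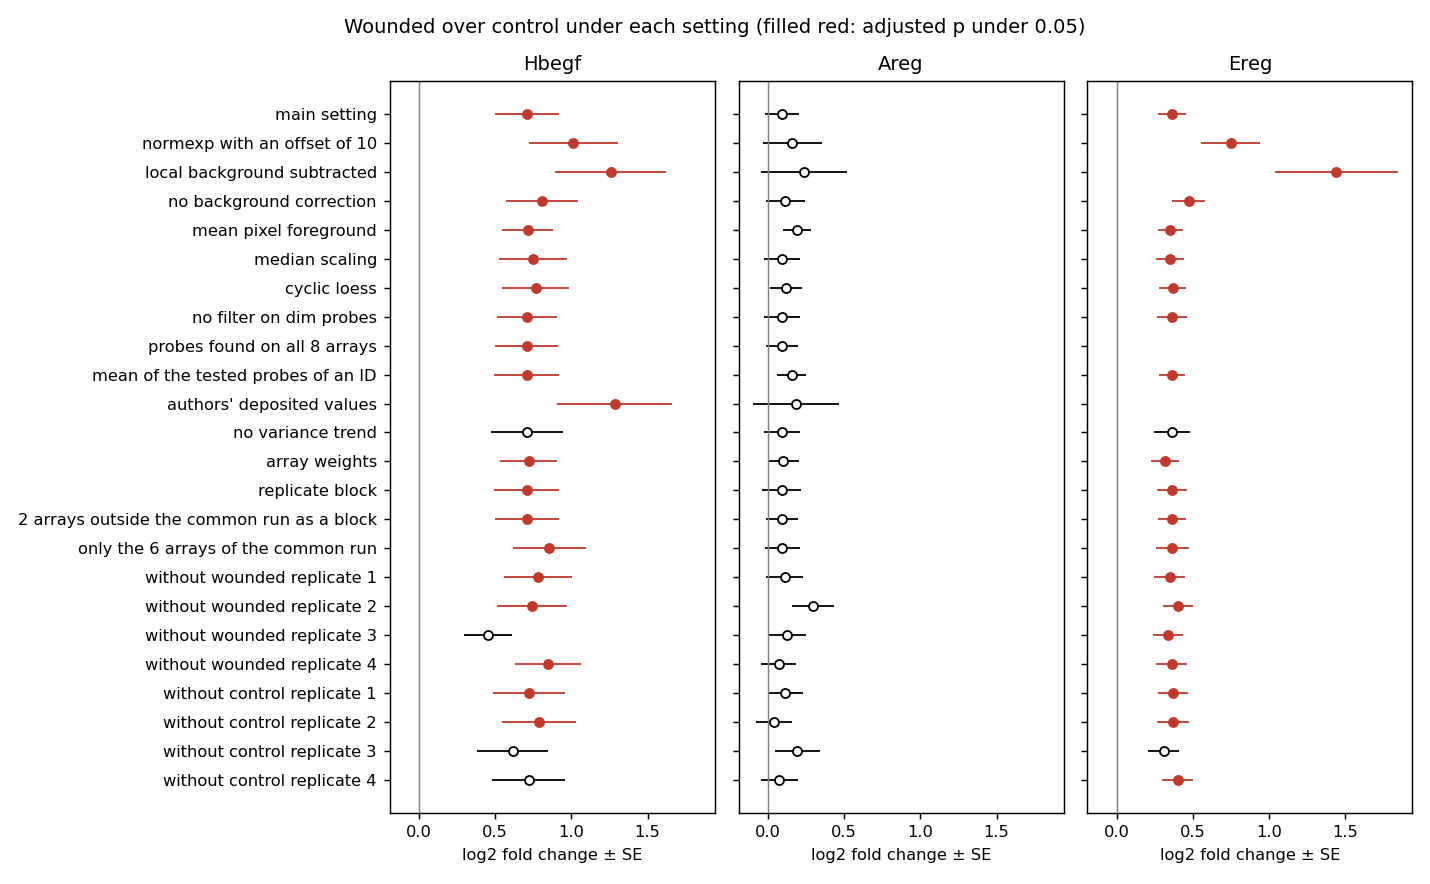
Log2 fold change, wounded over control, with its SE for Hbegf, Areg and Ereg under the main setting and each alternative, filled red where the limma adjusted p was under 0.05; a gap means that the gene had no tested probe. Hbegf runs from 0.45 to 1.29, Ereg from 0.31 to 1.44 against control spots mostly not found, and the Areg symbols are unfilled throughout.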

How the data were processed

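Skin RNA of each sample was copied into biotinylated cRNA and put on 1 Rat MI-Ready oligonucleotide array, per the labels' protocols. Per the file headers, a GenePix 4000B scanner read the arrays at 635 nm with a gain of 650, and GenePix Pro 4.1.1.4 measured the spots with no normalization. The deposited scanner files hold linear intensity values for the foreground and the local background of every spot. The authors' deposited table gives log2 values for 16079 probes. Once each array was shifted by a constant, log2 of foreground minus background matched it to 0.011 in at least 99.9% of probes compared on every array. Its column medians lay between 6.98 and 7.06, so scale and direction are settled and genes were not centred, but the choice of constants and probes is not given in the labels or headers used here.

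Median pixels were corrected with normexp and an offset of 50 over all spots (limma 3.58.1, R 4.3.3). Of 40320 spots, 1240 controls or unnamed spots were dropped next, along with spots marked bad, and log2 values were quantile normalised. Probes found on at least 4 of 8 arrays were kept (19444 of 38948), and the brightest stood for its Ensembl ID, which made 12769 features. Groups were compared with a 2-sided limma test (eBayes with a variance trend) and Benjamini-Hochberg adjustment across the 12769 features, called at 0.05. The offset shortens fold changes of dim spots, and the number of arrays limits the precision. The test was checked on simulated data.

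The reference gene table (GRCr8) gives an Ensembl ID in 0 of 47357 rows, and 0 of 46714 array IDs and name forms occurred in it, so gene lists and cell type markers could not be matched. Named genes were the 4 ligands with every probe and the 2 features most correlated with the ligand of largest called change. The members, lists and settings were chosen with earlier results of these data known, and the promoter motifs with the ligands' values known. Alternatives covered background, normalization, filter, probe rule, the authors' values, variance model, blocks and leaving out each sample.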

Additional observations from a re-analysis of the deposited data

Results flagged for a closer look

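Among 38 groups of 4 values examined, 2 held a sample flagged as apart from the rest, and chance gives about 1 in 20 for values without ties. On wounded 1, 55 spots were marked bad, while the remaining wounded arrays had 2 or 3. Control 3 had a median local background of 44 intensity units, and each other control had 43. These medians are whole numbers and the other controls were tied, so the rate of 1 in 20 does not apply to this small gap. The 32 groups formed by the signals of the ligand probes held no such sample.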

How the results depend on the processing

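The 23 alternatives gave 113 values, of which 105 left the call, or a count to within 1.5 times, as it was, 8 did not, and 0 reversed. These totals pool unlike values, since a count could not reverse and Areg stayed uncalled in all 23. The limma call was lost in 4 of 23 alternatives for Hbegf and in 2 of 21 for Ereg. Without a variance trend, Hbegf at 0.71 and Ereg at 0.36 (log2 fold changes as in the main setting) missed the limma threshold (adjusted p = 0.0658 and 0.0637). Leaving out 1 sample in turn gave log2 fold changes of 0.45 to 0.84 for Hbegf, 0.31 to 0.40 for Ereg and 0.04 to 0.30 for Areg. The limma call of Hbegf was lost without wounded 3, control 3 or control 4, that of Ereg without control 3, and Areg passed in 0 of 8. Without wounded 2 or control 3 the other Areg probe became the brighter one. These omissions gave 795 to 1055 features higher and 839 to 1278 lower. Median scaling gave 972 higher and 780 lower, or 55.5% higher among calls against 45.4% in the main setting. Probes found on all 8 arrays, fewer features, gave 625 higher and left out Ereg. A replicate block on the sample number gave 987 higher and 1079 lower, and the calls of Hbegf, Ereg and Areg did not change (limma adjusted p = 0.0251, 0.0155 and 0.690). Deviations from the group means correlated at -0.28 to -0.01 between samples of one number, and for 0 of 8 was that the best match. Tgfa was left out of these alternatives, because its spots were not found on most arrays. Their cause was not tested. Spots of these ligands lay 4 to 215 units above background, which limits how small a change could be seen.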
